A study of Spodoptera exigua with 2 samples.

Results

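Spodoptericin (SPEXI_LOCUS9978) is 1 of the 13002 genes counted in hemocytes, the blood cells, of the beet armyworm Spodoptera exigua. It was taken by its locus number, which the study pairs with the name. The data hold 2 single-cell RNA libraries, 1 from naïve larvae injected with phosphate-buffered saline (PBS) and 1 from immune-challenged larvae injected with 140000 heat-killed Escherichia coli TOP10 cells each. All larvae were newly molted and in instar 5, kept at room temperature for 8 h after the injection, and hemolymph pooled from the larvae of a condition gave its library. The comparisons below ask in which hemocytes the gene was read, whether its level differed between the conditions, and whether it did what the cecropins did.

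Antimicrobial peptides are small secreted proteins that insects release into the hemolymph against microbes. The study counts spodoptericin, which carries the name of the genus, among them. Cecropins, the other peptides followed here, are linear, form an amphipathic helix and disrupt bacterial membranes. In Drosophila, the Toll and IMD pathways, which start from peptidoglycan recognition proteins and from the cytokine Spaetzle, switch on such genes through NF-kB factors in fat body and hemocytes. Spodoptericin, cecropin B (SPEXI_LOCUS6878) and cecropin A1 (SPEXI_LOCUS6881) are described side by side.

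Molecules were counted by their unique molecular identifiers (UMIs), short random tags added to each mRNA copy at capture. After cells outside 200 to 6000 genes were removed, 14840 naïve and 12524 challenged cells remained, with medians of 3347 and 5282 UMIs per cell. The libraries shared 44 cell barcodes, and Scrublet called 2.53% and 1.79% of the cells as doublets, which were kept. A level is the number of UMIs of a gene per 1000000 UMIs (CPM), summed over the cells named. With 1 library per condition no value has a replicate error and no test between conditions was possible. The intervals given are 95% intervals that cover counting error only, and every difference between the libraries is a difference between these 2 pools of larvae. Markers of other cell types were present in both libraries: the 3 muscle genes summed to 114 and 61.0 CPM, the 2 genes used for spherulocyte or gut-like cells to 45.0 and 15.3 CPM, and the 3 genes of the hemicentin list to 2456 and 2295 CPM in the naïve and the challenged library. Their part in the results was not tested.

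Spodoptericin was read in about every other hemocyte, but most of its molecules came from few cells. The naïve library held 115451 spodoptericin UMIs, and 50.4% of its cells had at least 1 (exact Clopper-Pearson interval 49.6% to 51.2%). The challenged library held 105701 UMIs, with at least 1 in 54.8% of cells (54.0% to 55.7%). The median cell had 1 UMI in either library, the cell at the 90th percentile had 21 and 24, and the highest cell had 1201 and 940. The 10% of cells with the most held 75.1% of all spodoptericin UMIs in the naïve library and 72.7% in the challenged library. Cells with 50 UMIs or more were 3.52% of the naïve and 4.51% of the challenged cells, and they carried 48.3% and 50.1% of the UMIs. The order of the shares of cells depended on depth. When every cell with at least 1000 UMIs was thinned to 1000 UMIs, which left out 2683 naïve and 1066 challenged cells, a UMI was found in 35.4% of naïve and 33.8% of challenged cells.

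The cecropins were spread in another way after the challenge. Cecropin B had a UMI in 57.8% of naïve cells and in 94.8% of challenged cells, or 40.2% and 80.4% after thinning. Its median went from 1 UMI to 12 UMIs per cell, and the share of its UMIs in the top 10% of cells went from 82.4% to 55.8%. Cecropin A1 had a UMI in 52.4% and 80.1% of cells, and its top 10% of cells held 70.0% and 51.5% of its UMIs. The histogram of spodoptericin counts was thus close in the libraries, while that of cecropin B was moved toward higher counts.

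**Figure D1:**
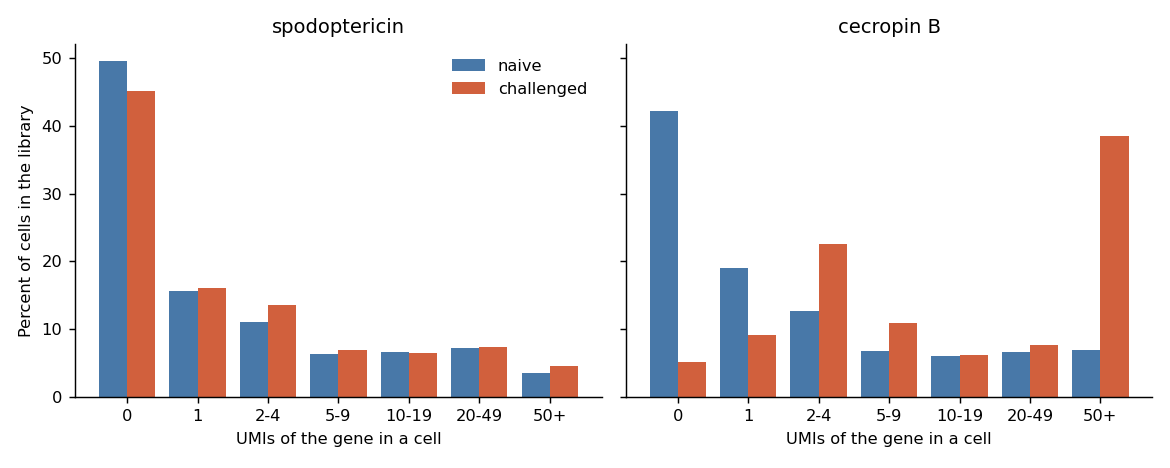
Percent of the cells of each library (y axis) by the number of UMIs of the gene in the cell (x axis), for spodoptericin and cecropin B, with bars for the naïve and the challenged library. The bars of spodoptericin are close in every class of counts, whereas cells with 50 or more cecropin B UMIs went from 6.93% to 38.5%.

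Over all cells, the level of spodoptericin was 1421 CPM in naïve larvae (exact Poisson interval 1413 to 1429) and 1119 CPM in challenged larvae (1112 to 1125). The challenged level was 0.787 times the naïve level (exact conditional interval 0.781 to 0.794), but the direction depended on how cells were weighed. When each cell had the same weight, the means were 1355 and 1475 CPM, which is higher in the challenged library. Cecropin B went from 2745 to 19530 CPM, a ratio of 7.12 (7.08 to 7.15), and cecropin A1 from 1203 to 5601 CPM, a ratio of 4.66 (4.62 to 4.69). Among 2399 genes at 50 CPM or more in 1 of the libraries, 2.54% were at least 2-fold higher and 1.25% at least 2-fold lower after the challenge. The cecropins were among the former and spodoptericin in neither group. The median ratio of these genes was 1.05, and the ratio of spodoptericin was at percentile 10.0.

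Hemocytes differ in the genes they make in bulk, and spodoptericin followed these differences. Cells were clustered without spodoptericin, the cecropins and the response genes, whose median ratio between the libraries over clusters was beyond 2-fold. Genes that differed less, or in some clusters only, stayed in, and a few clusters were mostly of 1 library. The 34 clusters were put in classes by marker genes at 2-fold or more above their level over all cells. PPO-high cells were rich in PPO1 and PPO2, the prophenoloxidases that start melanization when activated. Cathepsin-high cells were rich in procathepsin H and cysteine proteinase 1-like, which are lysosomal-type proteases. SPARC-high cells were rich in SPARC, a collagen-binding matrix protein, and hemocytin, a clotting protein. All remaining cells are called other cells, and they include clusters rich in hemicentin 1-like, a large matrix protein. The names describe marker levels and not cell types.

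The other cells were the main source of spodoptericin. They were 50.3% of the naïve cells and 43.7% of the challenged cells, and held 93.9% and 86.3% of the spodoptericin UMIs. Their naïve level was 2339 CPM (2326 to 2353) and their challenged level 1677 CPM (1666 to 1688). Cathepsin-high cells had 534 CPM (513 to 554) and 1496 CPM (1467 to 1525). SPARC-high cells had 152 CPM (147 to 157) and 98.2 CPM (94.1 to 102). PPO-high cells had 129 CPM (121 to 137) and 169 CPM (162 to 177). In the naïve library the order was other, cathepsin-high, SPARC-high and PPO-high cells, and in the challenged library the last places were exchanged. The counting intervals did not overlap, but they take no account of how UMIs are spread over cells. In PPO-high cells, 4 naïve cells held 34.2% and 5 challenged cells 35.1% of the spodoptericin UMIs of the class. The order of the last places thus leans on few cells.

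Other cells held most UMIs of the cecropins too, but the SPARC-high and cathepsin-high shares differed from those of spodoptericin. Of the cecropin B UMIs, other cells held 173927 of 222956 in the naïve and 1213313 of 1845534 in the challenged library. For cecropin A1 these counts were 62908 of 97714 and 326469 of 529267. By size, SPARC-high cells were 25.4% of the naïve and 22.5% of the challenged cells, with 27.3% and 23.2% of all UMIs. SPARC-high cells held 20.4% and 29.2% of the cecropin B UMIs and 32.8% and 29.6% of the cecropin A1 UMIs of the naïve and the challenged library, against 2.91% and 2.03% of the spodoptericin UMIs. Cathepsin-high cells held 2.29% of the spodoptericin UMIs in the naïve library and 9.82% in the challenged library, but only 0.353% and 0.774% of the cecropin B UMIs.

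**Figure D2:**
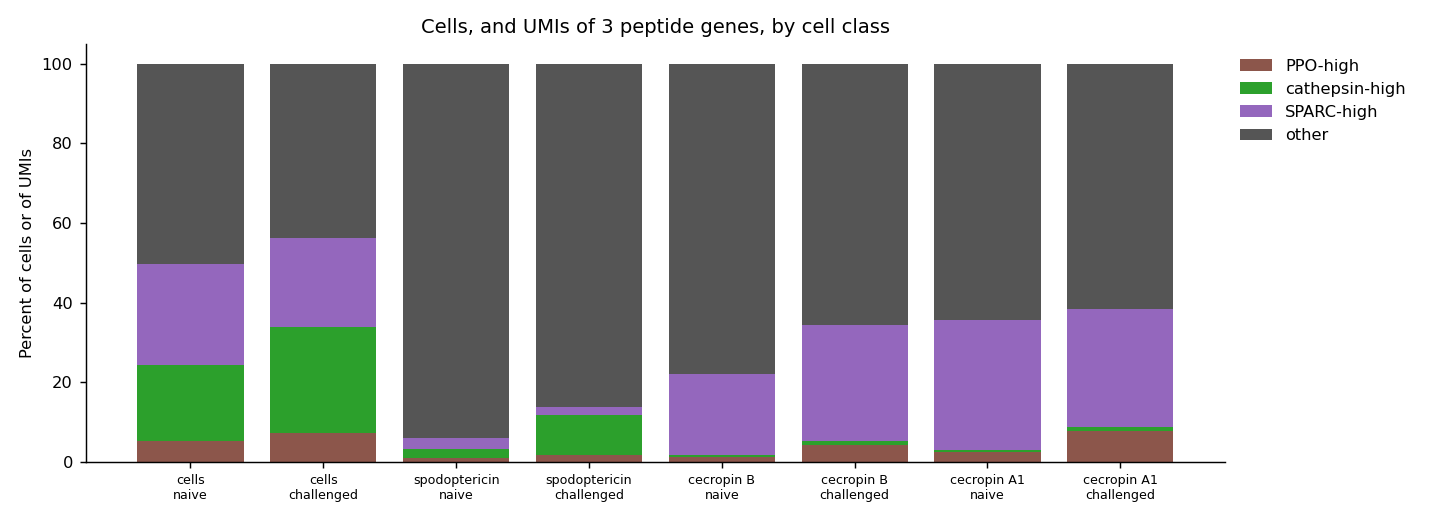
Percent of cells, and of the UMIs of spodoptericin, cecropin B and cecropin A1, in each cell class (stacked bars, y axis), for the naïve and the challenged library (x axis). Other cells take most of each bar of UMIs, SPARC-high cells are small for spodoptericin but not for cells or the cecropins, and cathepsin-high cells go from 2.29% to 9.82% for spodoptericin.

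Spodoptericin UMIs were also found where its level was lowest. The lowest naïve level over clusters that had 50 or more cells from each library was that of cluster 9, a SPARC-high cluster, with 64.9 CPM, and the lowest challenged level was that of cluster 23, also SPARC-high, with 30.3 CPM. After thinning, a UMI was found in 6.23% of the naïve and 4.53% of the challenged cells of cluster 9, with median depths of 5825 and 7144 UMIs. The thinned shares of PPO-high cells, 8.71% and 10.5%, and of SPARC-high cells, 11.3% and 9.09%, were not far above that. Free RNA in the droplets gives such low shares too, and a low level of expression in these classes cannot be told apart from it. The thinned share was 26.5% and 41.3% in cathepsin-high cells, with median depths of 1640 and 1969 UMIs, and 59.5% and 47.5% in other cells.

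Summed over the cells of each class, spodoptericin was higher after the challenge in cathepsin-high cells and lower in SPARC-high and other cells. In cathepsin-high cells the ratio was 2.80 (2.69 to 2.93), from 2641 UMIs in 2843 naïve cells and 10383 UMIs in 3332 challenged cells. Among 1812 genes with at least 50 CPM in these cells, 3.42% were at least 2-fold higher and 0.717% at least 2-fold lower, and the ratio of spodoptericin was at percentile 98.5. In PPO-high cells the ratio was 1.31 (1.22 to 1.42), from 129 to 169 CPM, and it was 0.926 when classes were made from the markers of each cell. A few PPO-high cells held a large part of these UMIs, as given above. In SPARC-high cells it was 0.648 (0.613 to 0.684) and in other cells 0.717 (0.711 to 0.723). Their ratios were 0.725 and 0.939 with each cell given the same weight. Both are within 2-fold, and 2.72% of the genes of SPARC-high cells and 1.73% of those of other cells were at least 2-fold lower.

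The cecropins were higher after the challenge in all 4 classes. The ratio of cecropin B was 19.6 in PPO-high, 12.9 in cathepsin-high, 11.98 in SPARC-high and 5.94 in other cells. The ratio of cecropin A1 was 11.7, 10.6, 4.94 and 4.42 in the same order. At least 2-fold higher were also 7.14% of the genes in PPO-high cells (0.857% were lower), 5.12% in SPARC-high cells and 2.48% in other cells.

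**Figure D3:**
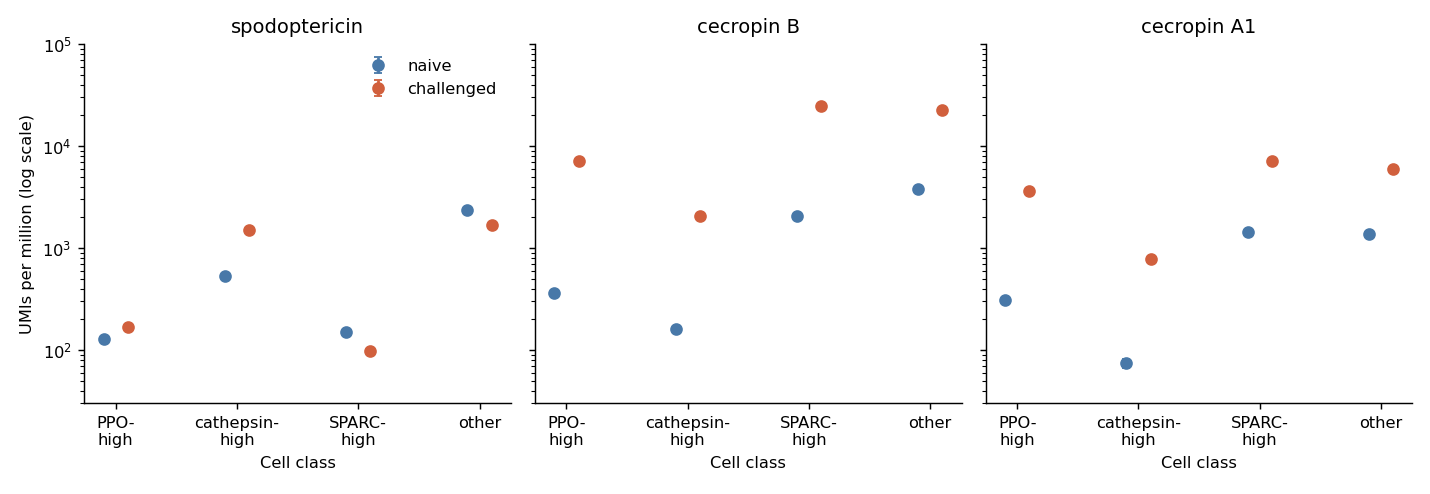
Level in CPM (y axis, log scale) of spodoptericin, cecropin B and cecropin A1 in the 4 cell classes (x axis), with points for the naïve and the challenged library and bars for exact 95% Poisson intervals, mostly smaller than the points. The challenged cecropin points lie above the naïve ones in every class, while for spodoptericin they lie clearly above in cathepsin-high cells, from 534 to 1496, and below in SPARC-high and other cells.

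The higher level in cathepsin-high cells was seen in each of their 4 clusters that had 50 or more cells from each library. In cluster 0, with 1522 naïve and 1115 challenged cells, spodoptericin went from 525 to 1608 CPM. In cluster 4, the richest of them in Spaetzle transcripts with 3830 and 3561 CPM of the Spaetzle locus, it went from 395 to 1049 CPM. In cluster 12 it went from 301 to 658 CPM, and in cluster 16 from 1428 to 2935 CPM. The 4 ratios were between 2.06 and 3.06. Cluster 0 held most of the naïve cells of the class and cluster 4 was the largest in the challenged library. Cluster 19 had 7 naïve and 404 challenged cells, and without it the ratio of the class was 2.59 (2.48 to 2.71), an alternative chosen after seeing the data.

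The same UMIs were also counted cell by cell, which adds no separate support. The share of cathepsin-high cells with 5 or more spodoptericin UMIs was 4.61% in naïve and 17.5% in challenged larvae, and the mean per cell was 0.929 and 3.12 UMIs. These counts were not thinned, and the median depths were 1640 and 1969 UMIs. Hemicentin 1-like, which was high in only part of the other cells with spodoptericin, had 85.5 CPM in naïve and 66.6 CPM in challenged cathepsin-high cells. Whether free RNA or doublets had a part in the higher spodoptericin level was not tested. Without the called doublets the ratio of spodoptericin was 2.78. When classes were made from the markers of each cell instead of its cluster, the naïve level was 709 CPM and the challenged level 1323 CPM, a ratio of 1.86.

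Among SPARC-high and other cells, the direction differed from cluster to cluster. Over the 24 clusters that had 50 or more cells from each library, the challenged level of spodoptericin was higher in 13 and lower in 11, with ratios from 0.356 to 3.06 and a median of 1.04. It was at least 2-fold higher in 4, which were the 4 cathepsin-high clusters, and at least 2-fold lower in 2, cluster 23 of the SPARC-high cells and cluster 10 of the other cells. Of the 6 SPARC-high clusters, 2 were higher and 4 lower. Cluster 3 held 1491 of the 3776 naïve SPARC-high cells and went from 213 to 273 CPM, whereas cluster 7 held 1218 of the 2818 challenged cells and went from 105 to 78.2 CPM. The counting interval of the ratio was below 1 in 3 of the 6 clusters and above 1 in 1, and their median ratio was 0.825. The class level compares pools with different shares of the clusters. What part these shares had in the lower class level was not tested. The ratio of the class was 1.33 when a 3-fold limit left only part of its clusters, among them cluster 14 with 610 naïve and 15 challenged cells. The largest cluster of other cells was cluster 1 in the naïve library, with 1817 cells, and cluster 8 in the challenged library, with 758 cells. Of the 13 clusters of other cells, 6 were higher and 7 lower, with a median ratio of 0.967. Clusters 13 and 28 were almost all challenged cells. Without them, an alternative chosen after seeing the data, the ratio in other cells was 0.802 (0.795 to 0.809). The share of these cells with 5 or more spodoptericin UMIs was then 42.8% in naïve and 51.2% in challenged larvae.

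Cecropin B was higher in 24 of the 24 clusters, with ratios from 2.10 to 31.4 and a median of 7.44. Cecropin A1 was higher in 23 of 24, with a median ratio of 4.26. When the clusters were given their naïve shares in both libraries, with 90.7% of the naïve UMIs in the clusters used, the ratio of spodoptericin over all cells was 0.993. The same weighting, chosen after seeing the data, gave 5.77 for cecropin B and 3.77 for cecropin A1.

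**Figure D4:**
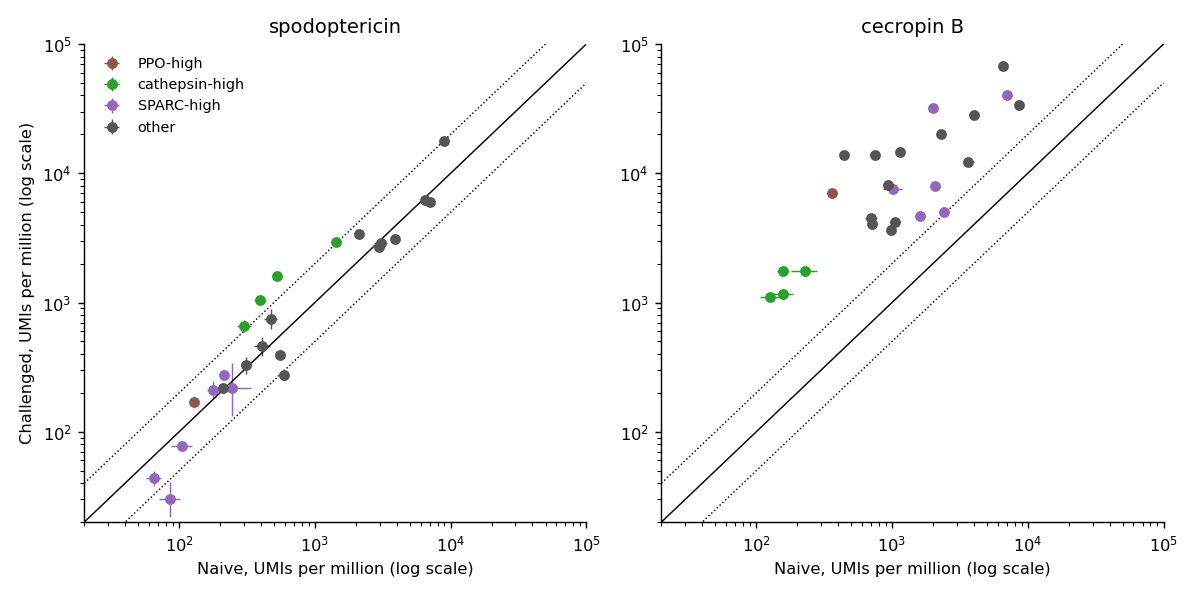
Level in the naïve library (x axis) against the level in the challenged library (y axis), both in CPM on log scales, of spodoptericin and cecropin B in the 24 clusters that had 50 or more cells from each library, coloured by class, with exact 95% Poisson intervals, a line of equal levels and dotted lines at 2-fold. Spodoptericin spans 64.9 to 8969 CPM in the naïve library, and its clusters lie on both sides of the line of equal levels, 13 above and 11 below. The 4 cathepsin-high clusters are above the upper dotted line and 2 clusters below the lower one, whereas all 24 clusters of cecropin B lie above the upper dotted line.

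Levels of spodoptericin differed far more between clusters than between libraries. The highest cluster had 138 times the level of the lowest in the naïve library. The rank correlation of the cluster levels between the libraries was 0.94 (Spearman's rho, 24 clusters, a description). With cecropin B the spodoptericin levels of the same clusters had a rho of 0.10 in naïve and 0.17 in challenged larvae, whereas cecropin A1 and cecropin B had 0.89 and 0.95. With hemicentin 1-like the rho of spodoptericin was 0.81 and 0.76. The levels compared within a library come from the same cells and share their depth.

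The highest level was in cluster 22, with 171 naïve and 153 challenged cells. Its leading gene was hemicentin 2-like (SPEXI_LOCUS173), at 61569 CPM in its naïve and 26087 CPM in its challenged cells. Spodoptericin went from 8969 to 17733 CPM there, 1.98 times the naïve level (1.90 to 2.06), with a UMI in 89.5% and 94.1% of the cells. Cecropin B went from 6531 to 67096 CPM in the same cells. These few cells gave 3.15% of the naïve and 7.34% of the challenged spodoptericin UMIs.

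Of the remaining clusters with 50 or more cells and over 2000 CPM in both libraries, all but cluster 8 were within 2-fold and lower after the challenge. Cluster 17 had 6457 and 6243 CPM and cluster 21 had 7027 and 6026 CPM. Cluster 2, the largest source in the naïve library with 44.9% of the UMIs, had 3870 CPM in 1401 naïve cells and 3108 CPM in 733 challenged cells. Cluster 8, the richest in hemicentin 1-like with 25498 and 21214 CPM, had the opposite direction. Its spodoptericin level was 2124 CPM in 542 naïve cells and 3403 CPM in 758 challenged cells, and its share of the UMIs went from 7.89% to 24.7%. Clusters 2 and 8 show how far the peptides part from each other. Cecropin B had 8600 CPM in cluster 2 and 443 CPM in cluster 8 of the naïve library, although both were rich in spodoptericin.

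Cluster 13 was seen in the challenged library only, with 661 cells. It had 84.4 CPM of spodoptericin and 54601 CPM of cecropin B, in the same cells. A few clusters of other cells were poor in spodoptericin as well. Cluster 6, whose cells had medians of 18349 and 25173 UMIs, had 552 and 395 CPM, and cluster 25 had 212 and 216 CPM.

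The genes whose single-cell pattern was most like that of spodoptericin were, like it, highest in the other cells. They were ranked among 5089 genes with a UMI in at least 5% of the cells of each library by the mean of the within-library Pearson correlations on log-transformed counts per 10000 UMIs. The mean r had a median of 0.02 over these genes, and 95% of them were under 0.20. The highest value, 0.58, was that of SPEXI_LOCUS1117 (0.60 in naïve and 0.56 in challenged larvae), and the next, 0.55, that of SPEXI_LOCUS12008 (0.59 and 0.51). Of the 10 highest genes only hemicentin 1-like is named by the sources used here, and it was last of the 10 with 0.47 and 0.49. All 10 had their highest class level in the other cells in both libraries. They were chosen by their correlation with spodoptericin, so this follows largely from the choice. The share of all ranked genes with that peak is not given beside it. Cells of 1 library share free RNA and a range of depths, and the correlations are descriptions.

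These genes did not share 1 direction between the libraries. Over all cells their ratios of challenged to naïve level had a median of 0.83 and ranged from 0.534 to 8.28. The gene with 8.28, the eighth in rank and without a name in the sources, went from 154 to 1271 CPM. In cathepsin-high cells 4 of the 10 were higher in the challenged library and 1 of them at least 2-fold. Among the 1812 genes with at least 50 CPM there, 3.42% were at least 2-fold higher and the median ratio was 1.06. Most of the 10 were under 50 CPM in these cells, so their ratios rest on low levels. SPEXI_LOCUS1117 had 21.8 and 25.1 CPM there, and SPEXI_LOCUS12008 had 38.4 and 17.7 CPM. Within cathepsin-high cells none of the 10 was among the 10 genes most correlated with spodoptericin, and within other cells 8 of the 10 were.

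At the other end were genes of the SPARC-high cells. SPARC had the lowest mean r of all, -0.41, with -0.36 in naïve and -0.45 in challenged larvae. The next was SPEXI_LOCUS743, with -0.36 and -0.45. Hemocytin had -0.32 and -0.41. PPO1 had -0.17 and -0.11, PPO2 had -0.16 and -0.12, and procathepsin H had -0.12 and 0.07. The homeobox gene paired mesoderm homeobox 2A had 0.17 and 0.09, and its level was 325 and 423 CPM.

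Over all cells of a library, spodoptericin had a lower correlation with each cecropin than the cecropins had with each other. The correlation with cecropin B was 0.22 in naïve and 0.05 in challenged larvae, and with cecropin A1 it was 0.14 and 0.01. Among the 5089 ranked genes, the mean r of cecropin B was at percentile 90.3 and that of cecropin A1 at percentile 80.5. Cecropin B and cecropin A1 had an r of 0.62 and 0.79 with each other in the same cells. Within the other cells, which hold most of the spodoptericin UMIs, the correlation with cecropin B was 0.28 in naïve and 0.08 in challenged larvae, and with cecropin A1 it was 0.31 and 0.11. PGRP-LB (SPEXI_LOCUS6461), a peptidoglycan recognition protein of a kind that cleaves peptidoglycan in Drosophila, went from 98.0 to 1902 CPM, and its r with spodoptericin was -0.07 and -0.19. Values of r near 0 in sparse counts are not read as a relation.

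Cells with and without a spodoptericin UMI were compared as well. Of thinned naïve cells with a spodoptericin UMI, 46.7% also had a cecropin B UMI, against 36.6% of those without. In the challenged library these shares were 81.4% and 79.9%. Within the other cells of the challenged library they were 87.4% with and 91.4% without a spodoptericin UMI. Within the cathepsin-high cells of that library they were 69.5% and 58.5%, with an r of 0.14 between the genes.

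Sorting the cells by their own spodoptericin level showed which genes went with it along the range. The cells with at least 1000 UMIs were used. The groups also differed in depth and class, and the part of these in the values was not tested. Challenged cells above 0 and up to 500 CPM had a median of 9938 UMIs and were 11.8% cathepsin-high. Those between 500 and 1000 CPM had 2664 UMIs and were 42.3% cathepsin-high. From no spodoptericin to 10000 CPM or more, SPARC-high cells went from 44.8% to 0% of the naïve and from 37.1% to 0% of the challenged cells. The 345 naïve cells at 10000 CPM or more, 2.84% of these cells, had 13436 CPM of cecropin B, against 1385 CPM in cells without spodoptericin, and every step between was higher than the one before. In the challenged library the cells without spodoptericin had 20319 CPM, those between 500 and 1000 CPM had 13260 CPM, and the 295 cells at 10000 CPM or more had 46221 CPM. Hemicentin 1-like was highest in the middle of the range, at 2000 to 5000 CPM of spodoptericin, with 7391 and 11309 CPM, and lower in the highest cells, with 1997 and 3353 CPM. SPARC went down along the whole range, from 14556 to 471 CPM in the naïve and from 11393 to 249 CPM in the challenged library. Cathepsin-high cells made up 2.32% of the naïve cells and 31.5% of the challenged cells at 10000 CPM or more.

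**Figure D5:**
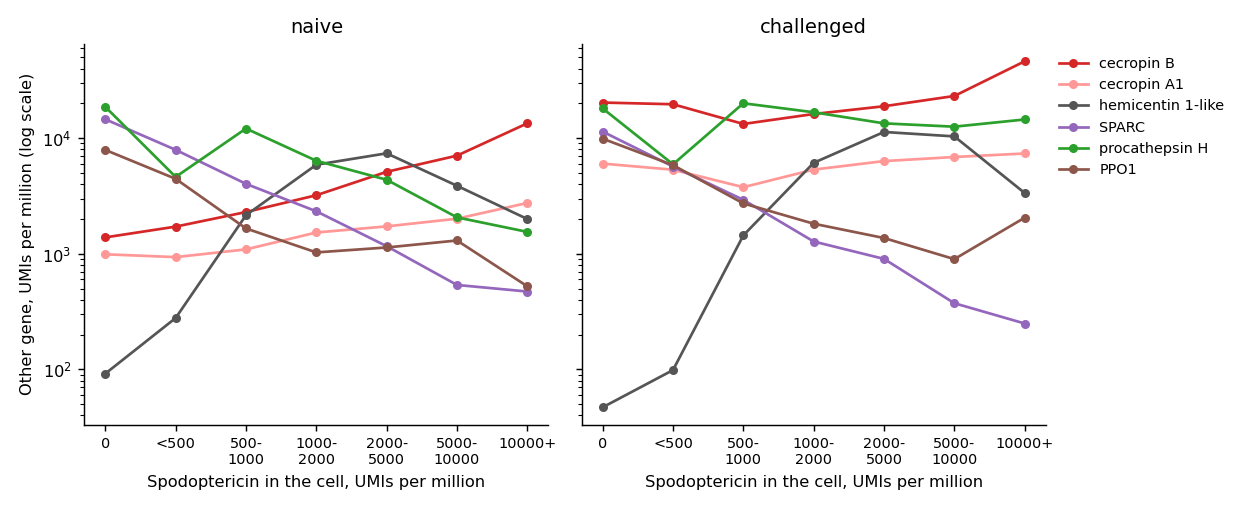
Level of 6 other genes in CPM (y axis, log scale) in cells grouped by their own spodoptericin level in CPM (x axis), for cells with at least 1000 UMIs of the naïve and the challenged library. Cecropin B climbs from 1385 to 13436 CPM in the naïve library but dips to 13260 CPM before reaching 46221 CPM in the challenged library, hemicentin 1-like peaks at 2000 to 5000 CPM of spodoptericin, and SPARC goes down in both.

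The loci of the Toll pathway were mostly at close levels in both libraries. The list held 14 loci, from small peptidoglycan recognition proteins to Dorsal and IkB, and the IMD branch was not analysed here apart from PGRP-LB, which is given above and is not in this list. Of the 14, 13 had at least 3 UMIs in each library. At least 2-fold higher after the challenge were 3 of the 13 and at least 2-fold lower none, where 2.63% of 11482 genes with that many UMIs were higher and 13.9% lower, and the median ratio of the 13 was 1.22. The 3 were loci of small peptidoglycan recognition proteins, which sense bacterial cell walls. SPEXI_LOCUS6460 went from 6.55 to 65.7 CPM, SPEXI_LOCUS12275 from 4.52 to 20.5 CPM and SPEXI_LOCUS12278 from 2.03 to 7.21 CPM. A 4th locus of this kind, SPEXI_LOCUS3847, had 1.03 and 1.30 CPM.

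The receptor and adaptor levels were close in both libraries. The Spaetzle locus (SPEXI_LOCUS12010), whose cleaved product binds Toll, had 355 and 434 CPM. MyD88, the adaptor below Toll, had 28.0 and 27.4 CPM, and Pelle, the kinase it recruits, had 22.0 and 26.3 CPM. Of the Toll receptor loci, SPEXI_LOCUS78 had 18.8 and 23.6 CPM and SPEXI_LOCUS4684 had 5.59 and 5.74 CPM, while SPEXI_LOCUS4652 had 50 and 64 UMIs and SPEXI_LOCUS1095 only 4 and 1. Dorsal, the NF-kB factor, and IkB, its inhibitor, are given for a pair of loci without a statement of which is which. SPEXI_LOCUS11477 had 28.4 and 18.5 CPM, and SPEXI_LOCUS11478 had 2.84 and 1.94 CPM. The beta-1,3-glucan receptor locus had 6 and 11 UMIs.

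Of the pathway loci, the Spaetzle locus and the Toll receptor loci SPEXI_LOCUS4684 and SPEXI_LOCUS78 had their highest class level in cathepsin-high cells. There the Spaetzle locus had 1908 and 2357 CPM, SPEXI_LOCUS4684 had 46.7 and 40.8 CPM, and SPEXI_LOCUS78 had 34.3 and 45.2 CPM. SPEXI_LOCUS6460 had 2.83 and 42.1 CPM in cathepsin-high cells and 10.1 and 80.9 CPM in other cells. The correlation of each of the 14 loci with spodoptericin across cells was at most 0.15 in either library.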

How the data were processed

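Single-cell RNA was measured in 1 naïve and 1 challenged library of pooled hemocytes. The authors made 10x Chromium 3′ libraries, and the deposited values are raw counts of UMIs for each gene in each cell. The file headers name Cell Ranger 7.2.0, and the genome build was not given in the sources used here. Gene names are those the study pairs with locus numbers. Cells with 200 to 6000 genes were kept. The mitochondrial filter was not applied. Cells were clustered in Seurat 5.3.0 (R 4.3.3; 5000 variable genes, 30 components, 20 neighbours, resolution 0.8), with 84 response genes, spodoptericin and the cecropins left out of the variable genes. Clusters were put in a class where its summed markers were 2-fold above the level over all cells. Doublets were called with Scrublet in scanpy 1.11.5.

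Levels are CPM of summed UMIs with exact Poisson intervals, ratios have exact conditional intervals and shares Clopper-Pearson intervals, all at 95%. UMIs were counted before any normalization, and intervals cover counting error only. No test was run, since cells of 1 library are not replicates. The genes named are the peptides, PGRP-LB, the markers, the Toll pathway loci, and the 10 highest and 5 lowest of the correlations with spodoptericin, of which at most 2 without a name are printed in each direction. The members and lists were chosen with earlier results of these data known. Alternatives covered the scaling (with the TMM factor of edgeR 4.0.16), cell filters, doublets, depth, class limits and clustering. Levels and correlations were tested on simulated data for the challenged over naïve comparison, where 97% of the intervals of 200 changed genes among 2205 held the true ratio. That simulation was Poisson, as are the intervals. Python 3.11.15 with scipy 1.17.1 and pandas 2.3.3 did the rest, and matplotlib 3.10.9 the plots.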

Additional observations from a re-analysis of the deposited data

Results flagged for a closer look

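The ratio of the challenged to the naïve level of spodoptericin was 2.80 in cathepsin-high cells and 0.648 in SPARC-high cells, which are opposite directions under the same challenge. With the 3-fold class limit the ratio in SPARC-high cells was 1.33, from 1389 naïve and 281 challenged cells, and both classes were then higher. Cluster 14 gave 610 of these naïve and 15 of these challenged cells, so that ratio compares different mixtures of clusters. With the 2-fold limit and without cluster 14, an alternative chosen after seeing the data, the ratio was 0.614 (0.580 to 0.650). The difference between the classes was not tested, since each condition has 1 library. All 4 cathepsin-high clusters that had 50 or more cells from each library were higher, whereas of the 6 SPARC-high clusters 2 were higher and 4 lower. In the same cells cecropin B was higher in both classes, with ratios of 12.9 and 11.98.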

How the results depend on the processing

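No paired analysis was possible because each condition has 1 library. All values here are log2 ratios of the challenged over the naïve library unless another quantity is named, and the cause of a difference between settings was not tested. The ratio of spodoptericin over all cells was -0.35. It was 0.12 with each cell given the same weight, and 0.12 with unscaled UMIs per cell, which turns its direction. It was -0.38 without the 50 most abundant genes in the totals, -0.25 with the TMM factor, -0.38 with at least 500 genes per cell, -0.36 without doublets, -0.024 with every cell thinned to 1000 UMIs, -0.31 without the cecropin and PGRP-LB loci in the totals, -0.38 with the naïve shares of the classes and -0.011 with the naïve shares of the clusters, the last chosen after seeing the data. The ratio of cecropin B, 2.83, was 2.91 with equal weights, 2.80 without the 50 genes, 2.93 with the TMM factor, 3.29 with unscaled UMIs, 2.81 with at least 500 genes, 2.82 without doublets and 2.86 after thinning. That of cecropin A1, 2.22, was 2.34, 2.19, 2.32, 2.68, 2.20 and 2.26 under the same settings, doublets left aside. Of the Toll pathway loci, 0 were at least 2-fold lower, and 1 with equal weights and 1 after thinning.

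The log2 ratio of the level in other cells over that in SPARC-high cells was 3.95 in the naïve library and 3.68 with the 3-fold class limit, 3.72 with classes from each cell and 4.07 without doublets. In the challenged library it was 4.09 and 2.71, 4.25 and 4.18 under these settings, 4.26 at a resolution of 0.4 and 4.30 with equal weights. With classes from each cell the ratio within PPO-high cells was -0.11 in place of 0.39, within cathepsin-high cells 0.90 in place of 1.49, within SPARC-high cells -0.96 in place of -0.63 and within other cells -0.42 in place of -0.48. With the 3-fold limit it was 0.42 in SPARC-high and -0.55 in other cells. With equal weights it was -0.46 in SPARC-high and -0.091 in other cells, and -0.35 in other cells at a resolution of 0.4. Without clusters mostly of 1 library, an alternative chosen after seeing the data, it was 1.38 in cathepsin-high and -0.32 in other cells. The direction in cathepsin-high cells was the same under all of these settings.

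The share of cells with a spodoptericin UMI was 54.7% and 56.2% with at least 500 genes per cell in the naïve and the challenged library, 35.4% and 33.8% after thinning, and 34.8% and 38.8% for 2 or more UMIs. The share of UMIs in the top 10% of cells was 69.7% and 70.5% after thinning, 75.6% and 73.3% without doublets and 70.7% and 70.8% with at least 500 genes. Of the 10 genes most correlated with spodoptericin, 1 was among the 10 highest within PPO-high cells, 0 within cathepsin-high cells and 0 within SPARC-high cells. The correlation with cecropin B in the naïve library was 0.082, 0.021, 0.051 and 0.28 within PPO-high, cathepsin-high, SPARC-high and other cells, and 0.14 within the challenged cathepsin-high cells. That with cecropin A1, 0.14 over all naïve cells, was 0.012, 0.0019, -0.038 and 0.31 within the same classes. When classes were made from each cell, 4876 of 27364 cells had a marker level between 1.33 and 3 times that over all cells.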
